A study of Mus musculus with 10 samples.

Results

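The T-cell receptor recognises antigen through a variable alpha-beta pair and signals through the CD3 chains, and this report follows 10 genes of that machinery in the thymus of newborn mice lacking 1 or both copies of Usp7. The genes were the CD3 chains Cd3d, Cd3e, Cd3g and Cd247, the coreceptors Cd4, Cd8a and Cd8b1, the signalling adaptor Themis, the adhesion receptor Cd2 and the costimulatory receptor Cd28. They were chosen by name, with earlier results of these data known. Each was present once in the count table of 35375 features, and all 10 passed the filter on low counts that left 19511 features for testing. Usp7 encodes a deubiquitinase, an enzyme that removes ubiquitin from proteins.

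The libraries were made from ribosomal-RNA-depleted, strand-marked total RNA of the whole thymus, taken 3 days after birth from mice on a C57BL/6J background. By their labels, homozygous KO mice (n = 3) lacked both Usp7 alleles in the hematopoietic system, heterozygous KO mice (n = 3) lacked 1 allele in the same compartment, and the third group was wild type for Usp7 (n = 4). The sample titles of wild type replicates 3 and 4 say wild type, and the names of their count columns read wt followed by het. Those of replicates 1 and 2 read wt followed by wt, and what the second word stands for is not given. The titles were followed, and the Cd28 and Cd8a results are also given without replicates 3 and 4. By the study's design 2 wild-type animals carried an induced Cre recombinase and 2 did not, and which animals these were is not given in the sources used here, nor is the promoter that drives Cre. Non-hematopoietic cells of the thymus keep Usp7 in such a model. Each library is taken as 1 animal, after the animal number in its label.

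CD3 delta, epsilon and gamma form heterodimers beside the antigen receptor, and CD247 (the zeta chain) forms a homodimer. Their cytoplasmic tails carry the motifs that the kinase LCK phosphorylates after antigen binding. Most thymocytes pass through a double-positive stage at which CD4 and CD8 are both present, and they then keep CD4 alone if selected on class II molecules of the major histocompatibility complex or CD8 alone if selected on class I. CD8 on thymocytes is mainly a dimer of an alpha and a beta chain. THEMIS tunes the receptor signal during this selection, CD2 binds CD48 in the mouse, and CD28 binds CD80 and CD86.

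Total counts ran from 92261908 to 122380785 in homozygous KO, from 90479962 to 97407789 in heterozygous KO and from 39833850 to 86366734 in wild type. The 10 genes together took 0.463% to 0.524% of a library, and the lowest count of any of them in any library was 3587. Levels are CPM, read counts put on one library size with TMM factors. Usp7 itself stood at 377 ± 65.1 CPM (SD, n = 3) in homozygous KO, 501 ± 25.4 (SD, n = 3) in heterozygous KO and 633 ± 47.2 (SD, n = 4) in wild type, and no value of 1 group reached those of another. Homozygous KO thus retained 59.7% of the wild-type Usp7 level (log2 fold change -0.74; edgeR adjusted p = 5.25e-04), and a count over the whole gene does not measure the deleted part alone. Heterozygous KO retained 79.2%, which did not pass (log2 fold change -0.34; edgeR adjusted p = 0.608), and the homozygous KO difference from heterozygous KO passed (log2 fold change -0.41; edgeR adjusted p = 0.0288) but was lost in 4 of 17 alternatives. Within wild type, Usp7 stood at 676 and 670.3 CPM in replicates 1 and 2 and at 594 and 589 CPM in replicates 3 and 4, all above the highest heterozygous KO value of 516. The tissue label fitted its markers: 7 pan-thymocyte genes (Lck, Bcl11b, Tcf7, Thy1, Lat, Zap70 and Ptprc) summed to between 7822 and 9098 CPM in every library. Against wild type, the homozygous KO libraries had 5 of 7 mature single-positive thymocyte markers lower (summed level 171 to 230 CPM against 303 to 411) and 6 of 6 neutrophil markers higher (55.8 to 309 CPM against 6.06 to 22.7). Of all genes tested, 13.2% were called lower and 12.5% higher in that comparison (edgeR adjusted p under 0.05). In bulk tissue, fewer cells of a type and less RNA per cell cannot be told apart.

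The CD3 genes lie together on chromosome 9, and the sequences around their start sites are shown with that of Cd8a because the study concerns E proteins, which bind E-box motifs. In the GRCm38 annotation Cd3g spans chr9:44969572-44980431 (minus strand) and Cd3d spans chr9:44981786-44987339 (plus strand), so that their start sites point away from each other across 1355 bp. Cd3e (chr9:44998740-45009627, minus strand) starts 27.84 kb from the Cd3d start. Each window below, from RefSeq on GRCm38.p6, holds 250 bases before and 50 bases after the start, written 5′ to 3′ along the gene, with every match to the E-box letters CANNTG in capitals. This motif is its own reverse complement, so 1 search covers both strands, and no matches overlapped in these windows.
Cd3g, chr9:44980382-44980681, minus strand: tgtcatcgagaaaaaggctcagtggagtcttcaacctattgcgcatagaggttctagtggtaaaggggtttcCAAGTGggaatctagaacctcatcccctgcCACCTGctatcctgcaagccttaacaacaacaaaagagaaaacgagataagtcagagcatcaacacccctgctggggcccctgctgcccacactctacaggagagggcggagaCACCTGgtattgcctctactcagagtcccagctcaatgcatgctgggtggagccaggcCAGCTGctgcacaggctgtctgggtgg
Cd3d, chr9:44981536-44981835, plus strand: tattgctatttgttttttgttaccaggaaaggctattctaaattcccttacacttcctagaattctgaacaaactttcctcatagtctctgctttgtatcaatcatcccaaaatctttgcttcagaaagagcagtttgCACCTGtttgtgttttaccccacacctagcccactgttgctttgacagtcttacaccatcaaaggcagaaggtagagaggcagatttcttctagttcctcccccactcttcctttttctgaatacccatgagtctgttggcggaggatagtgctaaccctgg
Cd3e, chr9:45009562-45009861, minus strand: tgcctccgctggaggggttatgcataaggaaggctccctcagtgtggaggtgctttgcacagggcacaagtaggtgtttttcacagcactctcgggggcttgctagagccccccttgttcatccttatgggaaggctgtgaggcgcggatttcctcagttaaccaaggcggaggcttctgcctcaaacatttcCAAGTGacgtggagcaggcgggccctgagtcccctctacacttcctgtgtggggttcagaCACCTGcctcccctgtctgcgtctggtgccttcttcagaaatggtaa
Cd8a, chr6:71373177-71373476, plus strand: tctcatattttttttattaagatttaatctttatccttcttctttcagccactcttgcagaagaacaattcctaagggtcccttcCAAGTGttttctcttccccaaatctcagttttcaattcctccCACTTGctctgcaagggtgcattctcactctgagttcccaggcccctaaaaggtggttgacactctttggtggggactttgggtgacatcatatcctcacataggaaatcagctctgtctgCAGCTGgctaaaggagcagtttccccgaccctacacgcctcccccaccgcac

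The Cd3g window held 4 matches, Cd8a 3, Cd3e 2 and Cd3d 1. The Cd247 window held 2, and the 2 windows of Themis held 2 and 1. Of all 32851 promoter windows of this length in the RefSeq table, 72.3% held at least 1 match, with a median of 1, so a match is common and is given as a description only.

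The CD3 chains stayed within a narrow band. None of the 4 passed the test in any comparison. Cd3e, the chain on which surface assembly of the complex depends, measured 408, 430 and 396 CPM in homozygous KO thymus, 416, 448 and 438 in heterozygous KO, and 437, 439, 451 and 414 in wild type. The groups overlapped, and the log2 fold change of homozygous KO against wild type was -0.08 ± 0.05 (SE; 95% interval -0.20 to 0.03; edgeR adjusted p = 0.285). Cd3g measured 326, 354 and 329 CPM in homozygous KO thymus, 366, 358 and 387 in heterozygous KO, and 367, 361, 374 and 314 in wild type. Its homozygous KO values lay below all 3 heterozygous KO values but not below wild type replicate 4, and the log2 fold change against wild type was -0.07 (95% interval -0.22 to 0.07; edgeR adjusted p = 0.456).

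Cd3d measured 243, 280 and 270 CPM in homozygous KO thymus, 230, 258 and 258 in heterozygous KO, and 232, 230, 248 and 246 in wild type. Homozygous KO replicate 1 lay among the wild-type values and the other 2 above them. The log2 fold change of 0.14 had an unadjusted p of 0.0450 and an edgeR adjusted p of 0.124. Without homozygous KO replicate 1 the change was 0.20 and passed (edgeR adjusted p = 0.0444; range over the alternatives 0.0444 to 0.615). Cd247, on chromosome 1, ranged from 247 to 289 CPM over all 10 libraries, and homozygous KO differed from wild type by a log2 fold change of 0.04 (95% interval -0.11 to 0.18). Cd3e, Cd247 and Themis overlap genes on the opposite strand in the annotation (Gm48719, Pou2f1 and Gm47834 among them). Whether the counting used strand is not given in the sources used here, so part of their counts could belong to those partners.

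**Figure D1:**
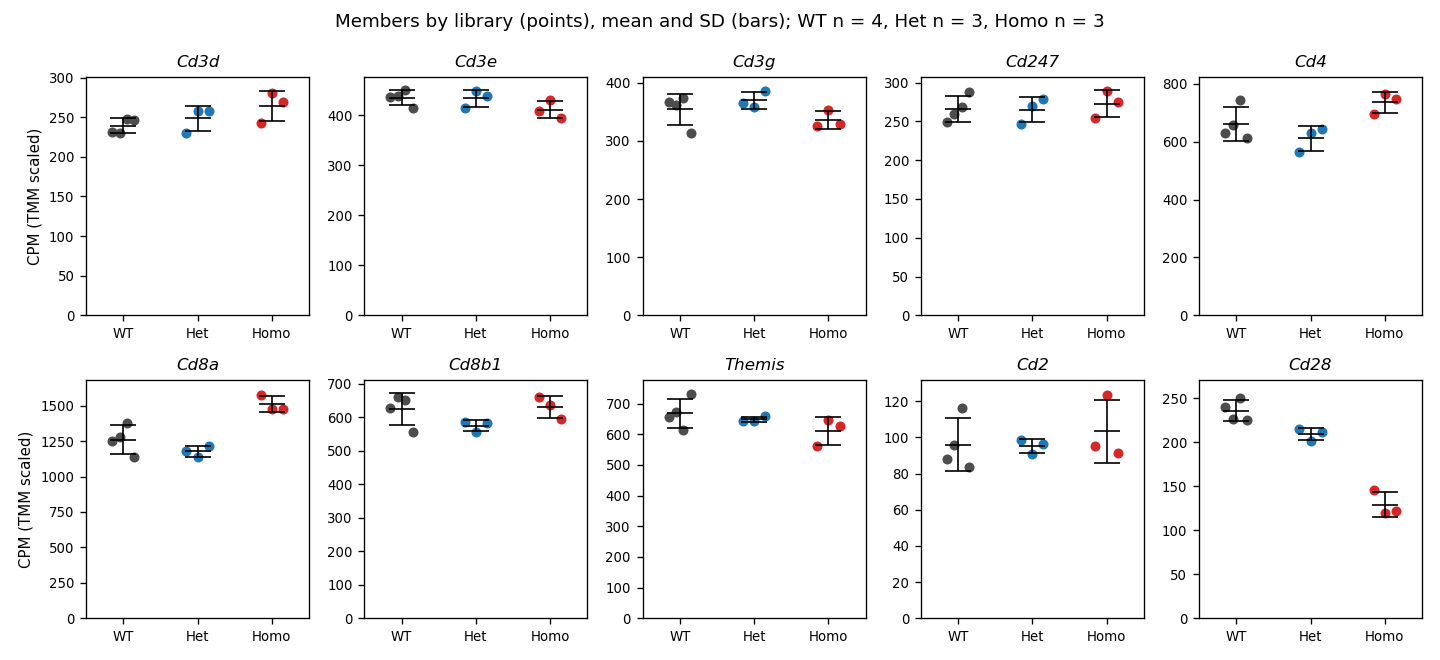
CPM of each of the 10 genes in every library (points), by group on the horizontal axis, with the mean and SD as bars; wild type n = 4, heterozygous KO n = 3, homozygous KO n = 3. All 3 homozygous KO values of Cd28 (120 to 145 CPM) lie below every other library, and all 3 of Cd8a (1476 to 1577 CPM) lie above every other library.

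Of the coreceptors, Cd8a rose in homozygous KO and Cd8b1 did not pass the test. Among all genes tested, 25.8% passed in homozygous KO against wild type (12.5% higher and 13.2% lower), and among the 10 genes 2 did, Cd8a higher and Cd28 lower. With library totals alone, 29% of the called genes were higher, against 48.6% with TMM. The median log2 fold change of the 10 was 0.03, beside -0.01 over all genes tested. Groups without overlap made up 32.7% of all genes and 2 of the 10, the same Cd8a and Cd28.

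Cd8a, the alpha chain that binds class I molecules and carries the LCK docking site, measured 1577, 1479 and 1476 CPM in homozygous KO thymus, 1178, 1140 and 1215 in heterozygous KO, and 1254, 1277, 1376 and 1135 in wild type. Every homozygous KO library was above every other library. The mean was 119.9% of the wild-type mean, a log2 fold change of 0.26 ± 0.07 (SE; 95% interval 0.11 to 0.41; edgeR adjusted p = 0.0148). An exact two-sided permutation of the 7 libraries gave p = 0.0571, where the smallest possible was 0.0286. Scaled by library totals alone, which moved the median of all genes to -0.11, the Cd8a change was 0.17 and no longer passed (edgeR adjusted p = 0.0894; range over the alternatives 0.00227 to 0.0910).

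Cd8b1, the beta chain of the same dimer, lies on chromosome 6 with its start 50.64 kb from that of Cd8a. It measured 661, 637 and 596 CPM in homozygous KO thymus, 586, 557 and 582 in heterozygous KO, and 628, 661, 651 and 556 in wild type. The wild-type values spanned all those of homozygous KO, and the log2 fold change was 0.02 (95% interval -0.13 to 0.16; edgeR adjusted p = 0.879). Cd4, the coreceptor for class II molecules, measured 696, 766 and 748 CPM in homozygous KO thymus, 564, 630.5 and 644 in heterozygous KO, and 631, 656, 745 and 613 in wild type. Only wild type replicate 3 reached into the homozygous KO range. The log2 fold change of 0.16 did not pass (95% interval -0.01 to 0.32; edgeR adjusted p = 0.163), while leaving out wild type replicate 3 took it to 0.22 and past the threshold (edgeR adjusted p = 0.0405; range over the alternatives 0.0405 to 0.601).

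Cd28 fell in homozygous KO by the widest margin of the 10 genes. It measured 145, 119.9 and 122.4 CPM in homozygous KO thymus, 215, 202 and 212 in heterozygous KO, and 240.3, 227, 251 and 225 in wild type. The 3 groups did not overlap, with heterozygous KO between the others. In homozygous KO the mean was 54.8% of the wild-type mean, a log2 fold change of -0.87 ± 0.07 (SE; 95% interval -1.03 to -0.71; edgeR adjusted p = 1.25e-05), lower in 3 of 3 libraries. The exact two-sided permutation gave 0.0286, the smallest p that 7 libraries allow. Without wild type replicates 3 and 4 the log2 fold change of Cd28 was -0.85 (edgeR adjusted p = 3.02e-04) and that of Cd8a 0.26 (edgeR adjusted p = 0.0217). With only those 2 as wild type they were -0.88 (edgeR adjusted p = 5.67e-04) and 0.27 (edgeR adjusted p = 0.0910, not passing).

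Themis measured 560.5, 648 and 625 CPM in homozygous KO thymus, 645, 645 and 658 in heterozygous KO, and 655, 672, 614 and 731 in wild type. The groups overlapped, with a log2 fold change of -0.13 in homozygous KO against wild type (95% interval -0.28 to 0.02; edgeR adjusted p = 0.198). Cd2 had the largest coefficient of variation of the 10 in homozygous KO (16.8%) and wild type (15.2%) but not in heterozygous KO (4.29%). It ran from 91.6 to 123 CPM in homozygous KO and from 83.7 to 117 in wild type, and its 95% interval of -0.16 to 0.38 left both directions possible. With library totals alone the calls among the 10 were 0 higher and 3 lower: Cd28, Cd3e (log2 fold change -0.18; edgeR adjusted p = 0.0225; range over the alternatives 0.0225 to 0.619) and Themis (-0.22; edgeR adjusted p = 0.0390).

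**Figure D2:**
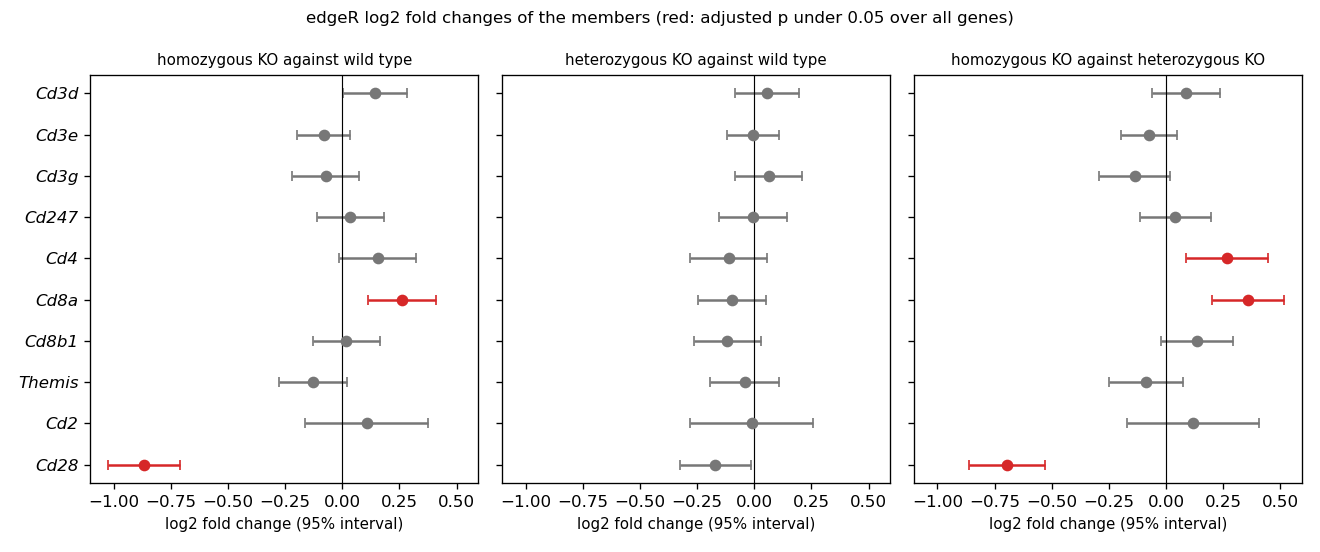
edgeR log2 fold changes of the 10 genes (points) with 95% intervals (lines), 1 panel for each comparison, with genes past the adjusted p threshold of 0.05 in red. Cd28 stands far left in both comparisons with homozygous KO, Cd8a is right of 0 in both, Cd4 is red only against heterozygous KO, and no gene is red in heterozygous KO against wild type.

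In heterozygous KO, where the lower Usp7 level itself did not pass, none of the 10 genes passed either. Against wild type 0.0154% of all genes passed, or 3 genes. Unadjusted p-values were under 0.05 for 1421 genes and for 1 of the 10, Cd28, and DESeq2 also called 0 of the 10. Cd28 stood at 88.8% of the wild-type mean, a log2 fold change of -0.17 ± 0.07 (SE; 95% interval -0.33 to -0.02; edgeR adjusted p = 0.666), lower in 3 of 3 libraries. Its groups did not overlap, as for 8.69% of all genes. The other 9 genes had log2 fold changes between -0.12 (Cd8b1) and 0.06 (Cd3g), with overlapping groups.

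The comparison of homozygous KO with heterozygous KO sets mice labelled as lacking both alleles against those lacking 1, and uses the same homozygous KO libraries as the comparison with wild type. Here 17.1% of all genes passed and 3 of the 10 did: Cd8a and Cd4 higher (7.63% of all genes) and Cd28 lower (9.5%). Cd8a stood at 128% of heterozygous KO, a log2 fold change of 0.36 ± 0.07 (SE; 95% interval 0.20 to 0.52; edgeR adjusted p = 0.0057). Cd28 stood at 61.7%, a log2 fold change of -0.70 ± 0.08 (SE; 95% interval -0.86 to -0.53; edgeR adjusted p = 1.15e-04). Cd4 stood at 120.3%, a log2 fold change of 0.27 ± 0.08 (SE; 95% interval 0.09 to 0.45; edgeR adjusted p = 0.0458).

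The Cd4 call was the least steady: it was lost in 11 of 17 alternatives, with edgeR or DESeq2 adjusted p-values from 0.0187 to 0.179, and 7 of these 11 left out a single library. Adjusted p was 0.133 when homozygous KO replicate 2 was dropped and 0.114 for replicate 3; it was 0.167, 0.0855 and 0.0714 when heterozygous KO replicates 1, 2 and 3 were dropped in turn, and 0.0596 and 0.0695 for the first and second wild types. Groups did not overlap for 33.3% of all genes and for 5 of the 10, namely Cd4, Cd8a, Cd8b1, Cd3g and Cd28. Cd8b1, at a log2 fold change of 0.13, and Cd3g, at -0.14, did not pass (edgeR adjusted p = 0.245 and 0.235).

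Animal numbers fall into a low block (44 to 51) and a high block (56 to 63), and what the numbers stand for is not given. Each block holds all 3 groups, with at least 1 group at a single library. The Cd28 log2 difference of homozygous KO from wild type was -0.72 within the low block and -0.90 within the high block, and that of Cd8a was 0.28 and 0.38. Against heterozygous KO, Cd28 differed by -0.57 and -0.77, Cd8a by 0.42 and 0.33, and Cd4 by 0.30 and 0.25. The heterozygous KO difference of Cd28 from wild type was -0.15 and -0.13. With the blocks as a term in the fit, Themis also passed in homozygous KO against wild type (log2 fold change -0.18; edgeR adjusted p = 0.0357; range over the alternatives 0.0357 to 0.474).

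Ratios within a library do not depend on the scaling between libraries, and they set the chains of 1 complex against each other. For each Cd8a count there were 0.418 ± 0.0138 Cd8b1 counts in homozygous KO (SD, n = 3), 0.488 ± 0.00957 in heterozygous KO (SD, n = 3) and 0.495 ± 0.0188 in wild type (SD, n = 4). The homozygous KO ratio was below every other library, with a log2 difference of -0.25 from wild type. The exact permutation p was 0.0286, the smallest possible, and 0.257 after Benjamini-Hochberg adjustment over the 18 ratio tests, so the difference did not pass. With so few libraries, 1 ratio at the smallest p could not pass this adjustment on its own. Between the KO genotypes the smallest possible p was 0.1, so no ratio could pass there. These tests therefore cannot decide whether the ratio differs. The ratio of Cd8a to Cd3e was 3.68 ± 0.218 in homozygous KO thymus, 2.72 ± 0.153 in heterozygous KO and 2.89 ± 0.129 in wild type, with a log2 difference of 0.35 from wild type and the same p-values.

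Within the CD3 complex, Cd3d to Cd3e was 0.642 ± 0.0443 in homozygous KO thymus, 0.573 ± 0.0175 in heterozygous KO and 0.550 ± 0.0315 in wild type. Homozygous KO lay above all other libraries only by a near tie, at 0.5943 in homozygous KO replicate 1 against 0.5942 in wild type replicate 4, with an exact permutation p of 0.0571 against wild type and 0.3 adjusted. Cd3g to Cd3e (0.818, 0.854 and 0.813 in the same order of groups) and Cd247 to Cd3e (0.663, 0.611 and 0.613) overlapped in every comparison. Cd4 to Cd8a also overlapped, at 0.489 in homozygous KO thymus, 0.520 in heterozygous KO and 0.525 in wild type. In all, 3 of the 6 ratios did not overlap between homozygous KO and wild type, Cd3d to Cd3e by that near tie. Between the KO genotypes 3 did not, while 0 separated heterozygous KO from wild type. Levels of single genes did not overlap for 32.7% of all genes against wild type and 33.3% between the KO genotypes. The share for ratios of other gene pairs was not computed. Cd8b1 to Cd8a and Cd8a to Cd3e share Cd8a, itself called higher, so they are not separate results.

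**Figure D3:**
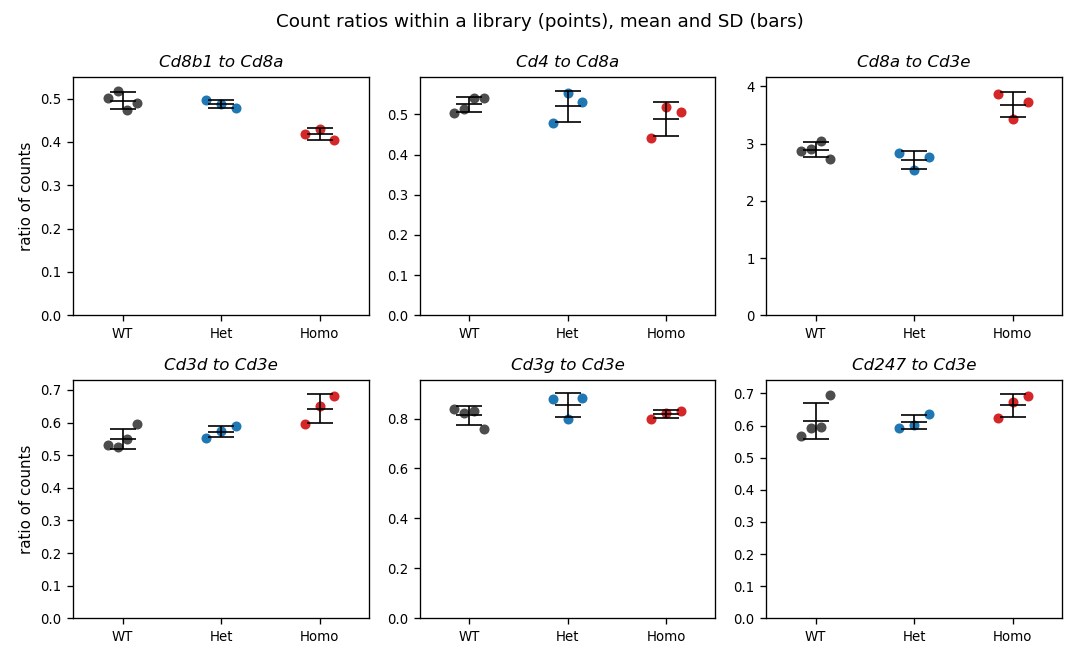
Ratios of raw counts within each library (points), by group, with the mean and SD as bars; wild type n = 4, heterozygous KO n = 3, homozygous KO n = 3. The homozygous KO points lie below all others for Cd8b1 to Cd8a and above all others for Cd8a to Cd3e, and for Cd3d to Cd3e the lowest homozygous KO point is level with the highest wild-type point, while the other 3 ratios overlap.

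Levels between genes were compared as CPM per kb of exon. In wild type Cd8b1 was highest at 421 ± 31.8 (SD, n = 4), followed by Cd8a at 347 ± 27.3, and their libraries overlapped. Cd4 at 164 ± 14.5, Cd3d at 132 ± 5.16 and Cd3g at 108 ± 8.37 followed. Cd3e stood at 107 ± 3.76 and overlapped Cd3g. Themis (57.2 ± 4.15), Cd2 (55.1 ± 8.36) and Cd247 (49.96 ± 3.09) formed a lower group in which neighbours overlapped, and Cd28 was lowest at 38.5 ± 1.96, below all of them. Among 14492 protein-coding genes with a length, these levels ranked from 56 (Cd8b1) to 1023 (Cd28).

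In homozygous KO the per-length order began with Cd8b1 (426 ± 22.3; SD, n = 3) and Cd8a (415 ± 15.8), which overlapped, and ended with Cd28 (21.1 ± 2.30). In heterozygous KO Cd8b1 (388 ± 10.6; SD, n = 3) and Cd8a (324 ± 10.4) did not overlap, whereas Cd4 (152 ± 10.7) and Cd3d (137 ± 8.72) did. The exon lengths are those of a GRCm38 annotation and not of the build used for counting, so these levels are approximate.

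**Figure D4:**
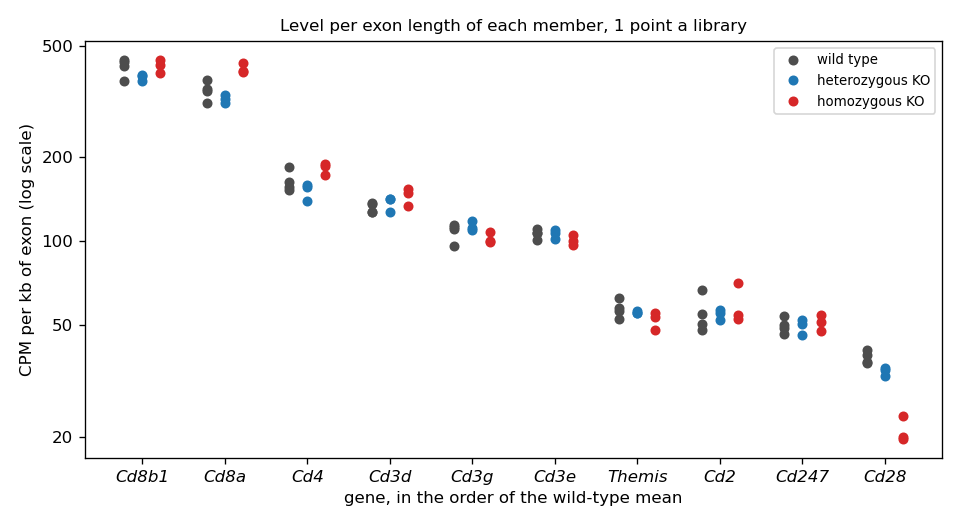
Level of each gene as CPM per kb of exon (log scale) in every library, 1 point a library, with genes ordered by the wild-type mean; wild type n = 4, heterozygous KO n = 3, homozygous KO n = 3. The order runs from Cd8b1 at 421 to Cd28 at 38.5 in wild type, and the homozygous KO points of Cd28 fall well below the rest.

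The partners of these genes were then examined as a list of 28 antigen receptor, proximal signalling and surface receptor genes, of which 27 were in the table and tested. Comparing homozygous KO with wild type, 14 of the 27 passed, 8 higher and 6 lower, where 25.8% of all genes did, with a median log2 fold change of 0.01. In heterozygous KO against wild type 0 of 27 passed (0.0154% of all genes), and between the KO genotypes 11 did (17.1% of all genes), 7 higher in homozygous KO and 4 lower, with a median of 0.09.

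The largest falls in homozygous KO against wild type included genes of the CD28 axis. Cd86, a ligand of CD28 found on antigen-presenting cells, went from 5.36 ± 0.456 CPM in wild type to 1.59 ± 0.190 (log2 fold change -1.75; edgeR adjusted p = 3.49e-05). Icos, a costimulatory receptor of the CD28 family, went from 23.0 ± 4.42 to 7.56 ± 2.15 CPM (log2 fold change -1.60; edgeR adjusted p = 1.46e-04). Cd5, a receptor that dampens antigen receptor signals, went from 169.8 ± 21.3 to 90.0 ± 9.95 CPM (log2 fold change -0.92; edgeR adjusted p = 7.99e-05). Beside Cd86, 6 of 6 dendritic cell markers fell (5.01 to 6.03 CPM summed against 17.5 to 22.2), as did 6 of 6 B cell markers (6.73 to 9.36 CPM against 30.8 to 49.1) and 6 of 7 macrophage and monocyte markers (37.1 to 65.7 CPM against 62.3 to 89.0). Of all genes tested, 13.2% were called lower. The part of these cell types in the Cd86 result was not tested.

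The largest rises were those of Ctla4, Cd80 and Thy1. Ctla4, an inhibitory receptor that competes with CD28 for its ligands, measured 14.6, 41.0 and 31.6 CPM in homozygous KO and 10.6 ± 2.12 in wild type (log2 fold change 1.46; edgeR adjusted p = 0.00346). Its lowest homozygous KO value was only just above the highest wild-type value of 13.7. Cd80, the other CD28 ligand, stood at 3.00 ± 0.359 CPM against 1.93 ± 0.412 (log2 fold change 0.64; edgeR adjusted p = 0.0397), a call lost in 14 of 19 alternatives (adjusted p up to 0.180). Thy1, a surface glycoprotein of thymocytes, stood at 1490 ± 104 CPM against 1069 ± 45.0 (log2 fold change 0.48; edgeR adjusted p = 1.94e-04).

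Cd28, Ctla4 and Icos are neighbours on chromosome 1 and lie on the same strand, with the Ctla4 start 170.2 kb and the Icos start 261 kb from that of Cd28 (chr1:60716800-60773359). In homozygous KO the middle gene rose while both outer genes fell. Against heterozygous KO the log2 fold changes were 1.40 for Ctla4 (edgeR adjusted p = 0.00959) and -1.22 for Icos (edgeR adjusted p = 0.00155), beside -0.70 for Cd28. Cd86 (-1.78) and Cd5 (-0.71) also fell in that comparison, and Lat (0.51) and Trbc1 (0.46) rose.

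The antigen receptor constant genes did not move together, and these are named here after their values were seen. Trac, the alpha constant gene, measured 85.8, 120.6 and 106 CPM in homozygous KO and 136 to 170.0 in wild type, and fell (log2 fold change -0.56). Trbc1 and Trbc2, the beta constant genes, rose by 0.45 and 0.30 on the log2 scale, from 535 to 729 and from 1086 to 1339 CPM. Trbc1 and Trbc2 are close copies, so reads may have been split between them. Of the proximal signalling genes, also named after their values were seen, Lat (0.46; edgeR adjusted p = 0.00197), Ptpn22 (0.28; 0.00313) and Lck (0.23; 0.0115) rose against wild type. Lcp2 fell (log2 fold change -0.17; edgeR adjusted p = 0.0145), and the others did not pass.

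**Figure D5:**
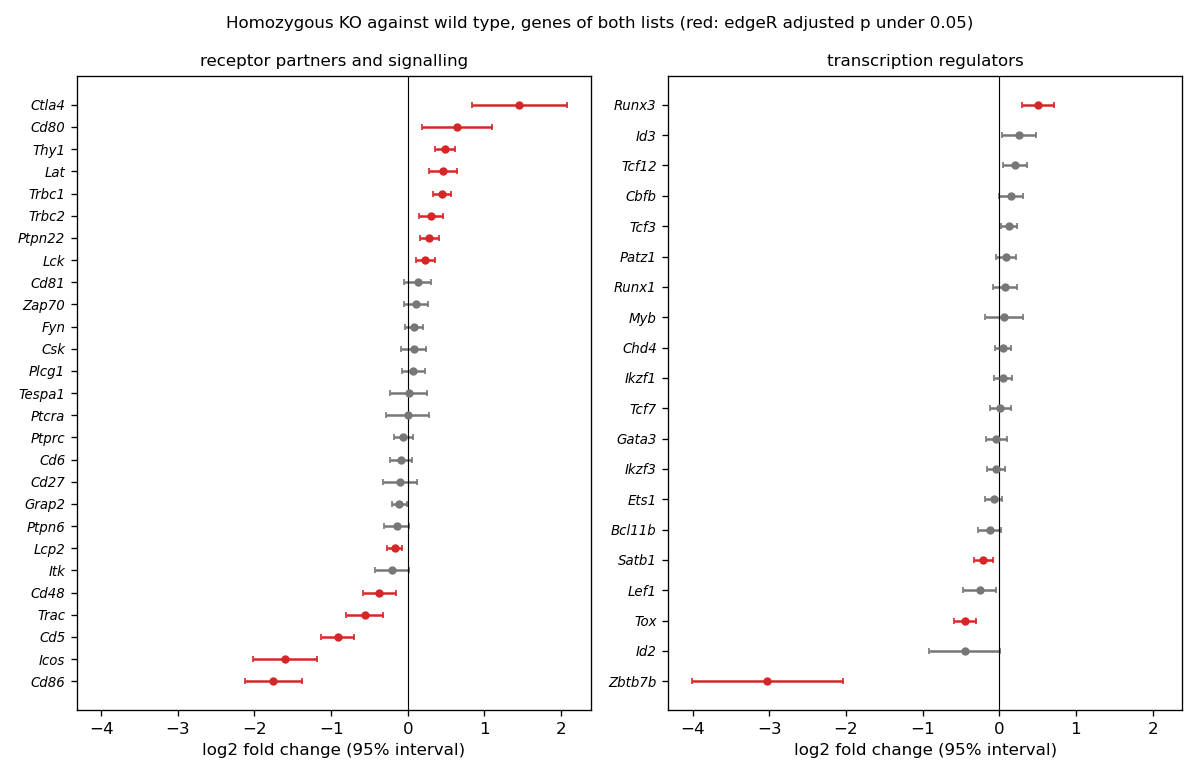
edgeR log2 fold changes in homozygous KO against wild type (points) with 95% intervals (lines) for the 27 tested receptor partner and signalling genes (left) and 20 of the 21 transcription regulators (right), with genes past the adjusted p threshold of 0.05 in red. On the left 8 genes are red above 0 and 6 below it; on the right Zbtb7b lies far below the others at -3.03.

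A second list held 21 transcription regulators known to act at these genes or in thymocyte development, all tested. In homozygous KO against wild type 4 passed (1 higher and 3 lower, median 0.05), where 25.8% of all genes did. With library totals alone 7 passed. In heterozygous KO against wild type 0 did. Zbtb7b, which encodes ThPOK, the factor that commits thymocytes to the CD4 lineage, measured 6.09, 2.31 and 1.16 CPM in homozygous KO thymus, 21.9, 21.8 and 22.1 in heterozygous KO, and 24.7, 24.5, 36.0 and 19.5 in wild type. Its homozygous KO libraries were all far below the rest (log2 fold change -3.03 against wild type; edgeR adjusted p = 6.37e-04). Runx3, which silences Cd4 and sustains Cd8 genes in the CD8 lineage, rose from 39.9 ± 4.43 to 56.4 ± 5.89 CPM (log2 fold change 0.50; edgeR adjusted p = 0.00284).

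Tox, which is needed for CD4 lineage development, fell (log2 fold change -0.45 against wild type and -0.47 against heterozygous KO). Satb1, a chromatin organiser of thymocytes, also fell against wild type (log2 fold change -0.21; edgeR adjusted p = 0.0166), a call lost in 3 of 19 alternatives (adjusted p up to 0.0914). Against heterozygous KO Zbtb7b changed by -2.77 and Runx3 by 0.48 on the log2 scale.

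Markers of thymocyte stages and of other cells were counted in the same way. Of all genes tested, 25.8% passed in homozygous KO against wild type (12.5% higher and 13.2% lower). In homozygous KO against wild type, pan-thymocyte markers had 3 of 7 higher and 0 lower (8608 to 9098 CPM summed against 7822 to 8428). The 3 were Thy1, Lat and Lck, which also belong to the receptor partners list, so they are not a separate result. Double-positive markers had 1 of 7 higher and 3 lower (5224 to 5656 CPM against 7517 to 8584, with Rag1 the most abundant), and double-negative markers 1 higher and 3 lower of 7 (231 to 759 CPM against 317 to 499.5). Other lists share genes too. Il7r is in the double-negative and mature single-positive lists, and Ptcra in the double-negative and receptor partners lists. Natural killer cell markers had 3 of 5 lower, fibroblast markers 3 of 5 higher, thymic epithelium markers 1 higher and 1 lower of 6, and erythroid markers 1 of 5 higher. None of the 4 endothelial markers tested passed. The summed levels of the double-negative, macrophage and monocyte, natural killer, fibroblast, thymic epithelium, erythroid and endothelial lists overlapped between homozygous KO and wild type. No marker was at 0 in every library, although Clec9a, Pdgfra, Lum, Tek and Emcn stayed under 1 CPM in all of them, and no marker list had a called gene in heterozygous KO against wild type. The part of these cell types in the changes of Cd28, Cd8a and Cd4 was not tested.

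The genes whose levels ran closest to 3 of the 10 were found by the SD over the 10 libraries of the log2 ratio to each, among 9813 genes. For Cd8a these were Myo19 (SD 0.0357), Gfi1 (0.0439) and Trpv2 (0.0501), where the median candidate had an SD of 0.203. For Cd4 they were Cdk5rap3 (0.0418), Mdp1 (0.0428) and Rnf40 (0.0439), against a median of 0.189. For Cd3e they were Ets1 (0.0318), Pigt (0.0319) and Wipf1 (0.0349), against a median of 0.157. The 10 libraries share 3 genotypes, so these figures describe likeness across them and carry no test.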

How the data were processed

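Gene counts of 10 thymus libraries were analysed. Per the labels and the submitters' processing notes, the authors deposited raw HTSeq 0.6.1p1 read counts per gene after STAR 2.4.1d alignment to NCBIM37/mm9, with CASAVA also named. The alignment step in the paper's methods uses a human reference and does not describe these mouse libraries. The annotation release and strand setting are not given in the sources used here. All 10 columns matched a sample by animal and library number; 2 of them (wild type replicates 3 and 4) also carry het in the column name, and groups followed the sample titles. Gene symbols matched 30204 of 34467 Ensembl identifiers, and 908 features had other names.

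The counts were filtered with filterByExpr, scaled by TMM and fitted in 1 edgeR 4.0.16 quasi-likelihood model of all 10 libraries (R 4.3.3), with Benjamini-Hochberg adjustment over 19511 genes and calls under 0.05. DESeq2 1.42.0 was an alternative. Levels are TMM-scaled CPM. SE and 95% intervals came from the edgeR fit. Count ratios were compared by exact two-sided permutation of libraries. Coordinates and exon lengths are from GENCODE M21 on GRCm38, a different build from the counting. The edgeR script was tested on simulated data.

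Named genes were the 10 members, Usp7, the 3 largest called rises and falls per list and comparison, and the 3 genes most like each of Cd4, Cd8a and Cd3e (average log2 CPM of at least 2). Trac, Trbc2, Lck, Ptpn22 and Lcp2 were named outside this rule, after their values were seen. One gene of the regulator list is not reported here by name, nor is that list's count between the KO genotypes. Members and lists were chosen with earlier results of these data known. Promoter windows were not given for Cd4, Cd8b1, Cd2 and Cd28. Counting error was at most 1.67% for any member in any library, and intervals from counts would cover counting error only. The 12 pairs of libraries within a group all differed beyond sampling noise (chi-square per degree of freedom 12.9 to 112). Alternatives were the scaling, the filter, DESeq2, blocks by replicate or animal number, an Xist covariate, a fit of only 2 groups, wild types split by their labels and leaving out each library.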

Additional observations from a re-analysis of the deposited data

How the results depend on the processing

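Cd28 kept its direction and its call in homozygous KO under 19 of 19 alternatives against wild type and 17 of 17 against heterozygous KO, and Cd8a under 17 of 19 and 17 of 17. DESeq2, like the other alternatives, called none of the 10 genes in heterozygous KO against wild type. Against only wild type replicates 3 and 4, whose titles hold 1 wt word and whose count columns also carry het, homozygous KO had 1 of the 10 genes called (Cd28; Cd8a was 0.27 at an adjusted p of 0.0910), 8 receptor partner genes in place of 14, and 2670 genes in all in place of 5030; Ctla4 was then at an adjusted p of 0.0519 and Satb1 at 0.0914 (Satb1 was also lost with the replicate block, 0.0703, and with only the 2 groups, 0.0521). Without those 2 libraries, 2 of the 10 genes, 12 receptor partner genes, 4 regulators and 3595 genes in all were called in homozygous KO. Cd28 in heterozygous KO was then at -0.16 (edgeR adjusted p = 0.647). Each split kept only 2 wild types, so both fits used fewer animals. Depth also differed between the splits. Wild type replicates 1 and 2 had 39833850 and 41018941 total counts, and replicates 3 and 4 had 86366734 and 80962924. With library totals alone 7 regulators were called in place of 4, and the share of higher calls in homozygous KO against heterozygous KO was 26.9% in place of 44.6%. All-gene calls in heterozygous KO against wild type were 71 with DESeq2 and 5 with the replicate block in place of 3, and 2 to 6 when 1 library was left out (6 without wild type replicate 4). In homozygous KO against heterozygous KO they were 2153 without heterozygous KO replicate 3 in place of 3342. Ratios without overlap in heterozygous KO against wild type numbered 0 to 2 when 1 library was left out (1 without heterozygous KO replicate 2 and 2 without wild type replicate 4).

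Log2 fold changes close to 0 changed sign in genes that did not pass in the fit reported; the cause was not tested. In homozygous KO against wild type, Cd247 was -0.059 with library totals alone, -0.027 with the animal-number block and -0.028 with wild types of 1 wt word, and -0.00195 to 0.079 without 1 library. Cd8b1 was -0.078 with library totals alone, -0.0355 with the replicate block, -0.00644 with the Xist covariate and -0.0304 with wild types of 2 wt words (replicates 1 and 2), and -0.0356 to 0.063 without 1 library. Cd2 was -0.032 to 0.21 without 1 library. In heterozygous KO against wild type, Cd3d was -0.00032 with the animal-number block. Cd3e was 0.0015 without the filter, 0.00055 with only the 2 groups and 0.0051 with wild types of 1 wt word, and -0.028 to 0.034 without 1 library. Cd247 was 0.00044 without the filter, 0.033 with the replicate block, 0.051 with the Xist covariate and 0.061 with wild types of 2 wt words, and -0.042 to 0.052 without 1 library. Themis was 0.0051 with the replicate block and -0.0799 to 0.0046 without 1 library. Cd2 was 0.015 with the animal-number block and 0.053 with wild types of 2 wt words, and -0.072 to 0.097 without 1 library. In homozygous KO against heterozygous KO, Cd247 was -0.045 with library totals alone and -0.015 to 0.078 without 1 library, and Cd2 was -0.026 to 0.20 without 1 library.

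Same-numbered libraries had correlations of deviations from -0.0906 to 0.200 over the 3 comparisons. The best partner carried the same number for 1 of 6 libraries in homozygous KO against wild type and 3 of 6 in heterozygous KO against wild type. Between the KO genotypes it did for 5 of 6, with correlations of 0.166, 0.0434 and 0.0910. Whether replicate numbers pair the libraries there is not settled by these values. With the replicate block 2, 0 and 3 of the 10 genes were called, as without it. Depth did not limit the 10 genes, whose lowest count was 3587; the number of animals limits the precision.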
